A study of Homo sapiens with 4 samples.

Results

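The genes of the integrin and laminin families were followed in OVSAYO cells, a human line from an ovarian clear cell carcinoma (CCC), after silencing of the transcription factor Sp1 and after exposure to CoCl2, a hypoxia-mimicking agent. The families were chosen with earlier results of these data known. Within them, genes were taken by symbol, whatever their values. Every integrin alpha, integrin beta and laminin chain gene to which the RefSeq accession of an array probe could be matched was included. This gave 38 genes (18 alpha subunits, 8 beta subunits and 12 laminin chains) of 17715 genes with a symbol on the array, measured by 59 probes. All 38 human RefSeq genes with such a symbol were on the array.

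RNA was hybridised to 4 single-colour arrays on 1 slide, with 1 array for each condition. NS-si cells were transfected with a negative control siRNA and Sp1-si cells with siRNA against Sp1, in each case with a Lipofectamine reagent. NS-si → CoCl2 and Sp1-si → CoCl2 cells were transfected in the same ways and then exposed to 0.5 mM CoCl2 for 4 h. According to the labels, 40 h of culture followed transfection, and every condition was grown from the same line, so all 4 carry whatever alterations that tumour line has. With 1 array per condition no value has a replicate, so nothing was tested and precision is limited by the number of arrays. The only error that can be given is the SD of a log2 ratio between the spots of a probe. It is the probe's own where it has 10 spots and otherwise the median of 53 10-spot probes of like signal, and it leaves out differences between cultures.

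Integrins are receptors made of 1 alpha and 1 beta subunit that hold cells to the extracellular matrix and pass signals across the membrane, and the pairing of subunits sets which ligand is bound. Laminins are trimers of an alpha, a beta and a gamma chain that form the sheet of the basement membrane on which epithelial cells rest. Several alpha subunits can share a beta subunit and the reverse, with ITGB1 taking the most partners and ITGAV pairing with several beta subunits. Sp1 is a zinc finger protein that binds GC-rich sequences called GC boxes in many promoters.

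Signals are the processed intensities of the scanner software, and each ratio is the difference of log2 signals after the 75th percentile of each array was subtracted. The signal at this percentile was between 977 and 1287. Signals are printed below without this scaling, so the printed signals do not by themselves give the printed ratios. Leaving out this scaling would move the median log2 ratio of all genes by -0.23 for NS-si → CoCl2 to NS-si, by 0.23 for Sp1-si → CoCl2 to Sp1-si, by -0.06 for Sp1-si to NS-si and by 0.40 for Sp1-si → CoCl2 to NS-si → CoCl2, so ratios below are relative to these shifts. The targeted transcript was low where the labels place the siRNA. The SP1 probe with 10 spots had signals of 553 in NS-si and 429 in NS-si → CoCl2 cells against 39.2 in Sp1-si and 38.7 in Sp1-si → CoCl2 cells. All 8 markers of clear cell and epithelial cells, among them NAPSA, PAX8, EPCAM and MUC16, were well above background on all 4 arrays. Of the leukocyte markers, PTPRC was not above background on any array while the other 4, among them CD14 and CD68, were, with a summed signal over the 5 genes of 649 to 1223. The endothelial markers PECAM1 and CDH5 were not above background on any array, whereas VWF and the platelet markers PF4 and GP1BA were dim but above it on all 4, the summed signal of the platelet markers being 101 to 133.

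Of the 38 genes, 33 were well above background on all 4 arrays at the probe used, which was the probe with the highest mean signal where a gene had several. ITGB3 was above background on 3 arrays. The remaining 4, ITGA4, ITGA8, ITGA10 and ITGAD, were above it on no array, with signals between 1.54 and 3.76, and have no ratios here. ITGA4 and ITGAD are best known from leukocytes, ITGA8 from mesenchymal cells and ITGA10 from cartilage. In RNA of a whole culture, fewer cells carrying a transcript and less of it per cell cannot be told apart.

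After silencing of Sp1, laminin chains and integrin subunits of several roles were lower, and a single beta subunit was higher by 2-fold. Without CoCl2, 34 of the genes could be compared between Sp1-si and NS-si cells. Of these, 6 were lower by at least 2-fold in Sp1-si cells (ITGB3, ITGB6, LAMA3, LAMC1, ITGA3 and LAMB1), a share of 17.6% beside 5.81% of all 14615 genes measured. ITGB5 alone was higher by at least 2-fold, 2.94% of the members beside 5.87% of all genes. The median log2 ratio was -0.16 over the members and -0.01 over all genes, and the members ranged from -2.59 for ITGB3 to 1.65 for ITGB5. Under CoCl2, 33 genes could be compared, 8 were lower by at least 2-fold in Sp1-si cells (ITGB6, LAMC1, ITGA2, LAMA3, LAMB1, ITGA3, LAMA4 and ITGA6), or 24.2% beside 7.73% of all genes, and ITGB5 was again the only one higher, 3.03% beside 7.06%. The median under CoCl2 was -0.46 over the members and -0.02 over all genes. Without scaling the median over the members was -0.07, and that over all genes moves up by 0.40 as well. Leaving out the scaling also changed the count under CoCl2 to 3 lower (ITGB6, LAMC1 and ITGA2) and 2 higher (ITGB5 and LAMA2). No share of all genes is given beside these unscaled counts. By role, 3 of the 12 laminin chains, 2 of the 8 beta subunits and 1 of the 14 measured alpha subunits were lower without CoCl2. Under CoCl2, 4 laminin chains, 1 of 7 beta subunits and 3 of 14 alpha subunits were lower. ITGB3 is not in the count under CoCl2, because the probe used was not above background in Sp1-si → CoCl2 cells. Its 10-spot probe was at -2.29 there.

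**Figure D1:**
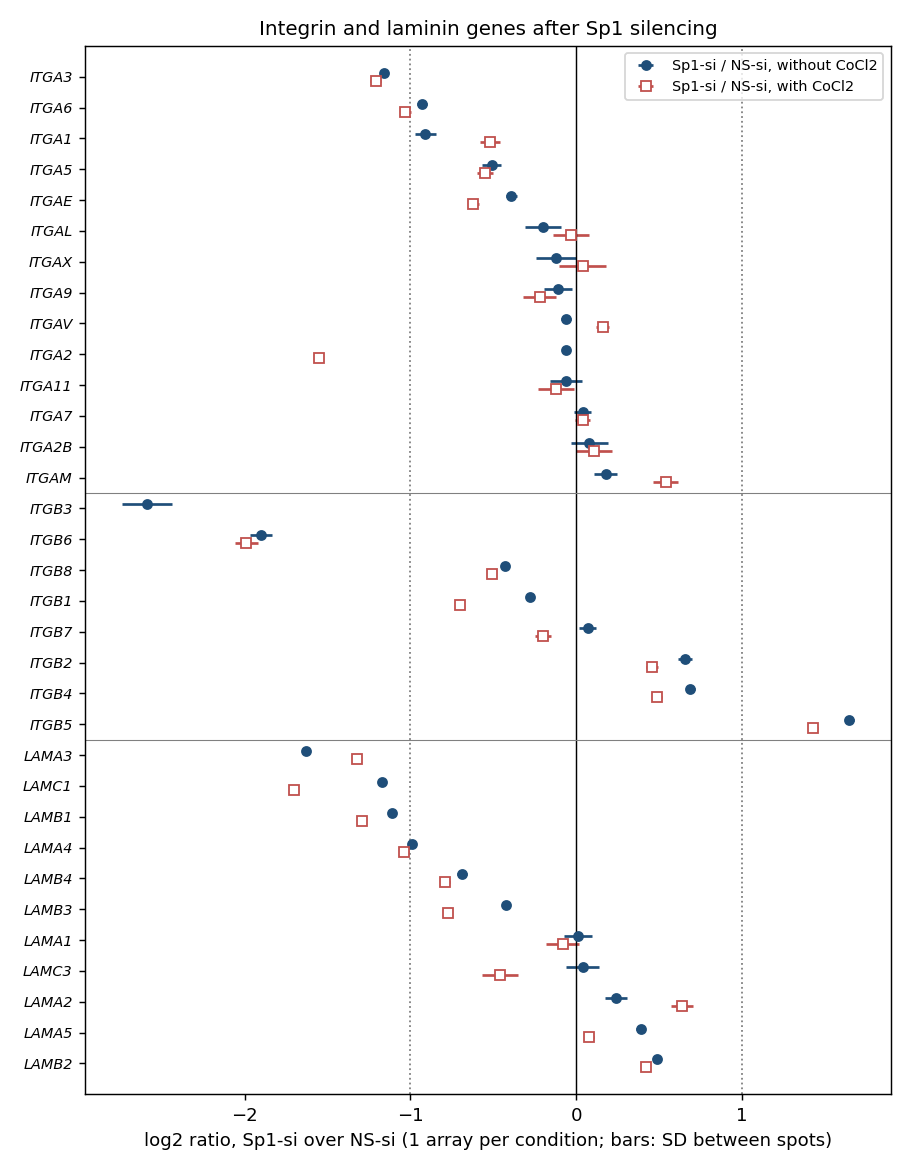
Log2 ratio of Sp1-si to NS-si cells for 33 of the 34 measured integrin and laminin genes (alpha subunits, beta subunits and laminin chains from top to bottom), without CoCl2 (filled circles) and with CoCl2 (open squares). Bars are the SD between spots, dotted lines mark a 2-fold change, and ITGB3 has no square because it was not above background in Sp1-si → CoCl2 cells. ITGB3 and ITGB6 lie farthest to the left and ITGB5 farthest to the right.

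The stretch before the transcription start is shown for the 3 most lowered genes with an entry in the RefSeq promoter table (GRCh38.p14) and for ITGB5, since Sp1 is the factor that was silenced. Each is the 250 bases up to the start, read 5′ to 3′ on the strand of the gene, and capitals mark GGGCGG or its reverse complement CCGCCC, the core of the GC box. They are ITGB6 at chr2:160200273-160200522 on the minus strand, LAMA3 at chr18:23872770-23873019 on the plus strand, LAMC1 at chr1:183023170-183023419 on the plus strand and ITGB5 at chr3:124901419-124901668 on the minus strand.
ITGB6: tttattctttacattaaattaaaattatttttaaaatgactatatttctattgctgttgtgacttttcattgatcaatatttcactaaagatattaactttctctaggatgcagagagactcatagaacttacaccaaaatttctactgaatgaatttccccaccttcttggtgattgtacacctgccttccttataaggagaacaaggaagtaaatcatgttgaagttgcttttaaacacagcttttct
LAMA3: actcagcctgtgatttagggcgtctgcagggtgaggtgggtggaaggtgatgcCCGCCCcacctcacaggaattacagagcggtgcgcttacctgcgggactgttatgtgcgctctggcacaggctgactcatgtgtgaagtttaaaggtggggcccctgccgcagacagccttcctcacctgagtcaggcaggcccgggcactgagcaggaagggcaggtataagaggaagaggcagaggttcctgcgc
LAMC1: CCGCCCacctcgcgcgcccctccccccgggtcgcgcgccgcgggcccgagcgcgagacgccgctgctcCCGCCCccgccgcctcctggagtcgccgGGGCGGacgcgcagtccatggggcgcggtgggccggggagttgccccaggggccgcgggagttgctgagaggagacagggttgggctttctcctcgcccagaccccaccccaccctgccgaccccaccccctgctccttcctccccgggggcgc
ITGB5: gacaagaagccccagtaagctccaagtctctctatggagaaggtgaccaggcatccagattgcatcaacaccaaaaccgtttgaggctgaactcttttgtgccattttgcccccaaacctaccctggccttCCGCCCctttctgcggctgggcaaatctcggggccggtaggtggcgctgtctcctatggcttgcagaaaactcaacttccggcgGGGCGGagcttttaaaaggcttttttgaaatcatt

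ITGB6, the second most lowered beta subunit, had no match in this window, where G and C made up 30% of the bases. LAMA3 had 1 match, LAMC1 had 3 and ITGB5, the raised gene, had 2. The LAMA3 start of the table lies 183567 bases inside the annotated gene, so it is an internal start and the outermost one is not shown. For ITGB5 the table gives 3 starts, of which the outermost is printed, and the number of matches was between 0 and 3 over them. On either strand, 42.3% of all 27305 promoters of this length held the motif, as did 63.7% of the promoters of genes above background on all 4 arrays. Of the 26 integrin and laminin genes with an entry, 13 held it (50%) at the first start listed, which is the start used for every gene and share here. The motif was present in 3 of 4 genes lower by at least 2-fold without CoCl2, in the single one that was higher and in 8 of the 18 that changed by less. ITGA2 and LAMB1 had 4 matches each and LAMA5 had 5, while ITGAV and LAMA4 had none. ITGA6 had none at the first of its 2 starts and 3 at the other. A match describes the letters of the window only, and binding of Sp1 to these promoters was not measured on the arrays. The cores ACGTG and GCGTG of the hypoxia response element, searched in the same way, were held by 2 and 7 of the 26 genes (7.69% and 26.9%), beside 18.7% and 31.9% of all promoters and 22.3% and 43.1% of those of genes above background on all 4 arrays.

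Among the beta subunits, ITGB3 and ITGB6 were lower and ITGB5 was higher, and all of them pair with ITGAV in receptors for matrix proteins such as vitronectin and fibronectin or for latent TGF-beta. ITGB3 had signals of 75.5 in NS-si and 74.9 in NS-si → CoCl2 cells against 12.1 in Sp1-si and 12.0 in Sp1-si → CoCl2 cells. The last value was not well above background. At this probe ITGB3 was 6.02-fold lower without CoCl2 (log2 -2.59, SD 0.15). The bound computed with CoCl2 was 8.24-fold lower. It used the dim signal of 12.0 itself and is not a limit for the gene. A 10-spot probe for ITGB3, above background on all 4 arrays, gave log2 ratios of -2.26 (SD 0.37) and -2.29 (SD 0.49). These are 4.8-fold and 4.89-fold lower, the latter less than the bound at the other probe. Both probes placed the Sp1-si arrays below the NS-si arrays. ITGB3 is dim, and with a normexp background correction its ratio without CoCl2 was -0.88.

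ITGB6 is an epithelial subunit whose receptor activates TGF-beta. Its signals were 239 in NS-si and 273 in NS-si → CoCl2 cells against 61.7 in Sp1-si and 90.7 in Sp1-si → CoCl2 cells. Both Sp1-si arrays were thus below both NS-si arrays, 3.72-fold without CoCl2 (log2 -1.90, SD 0.066) and 3.97-fold with it (log2 -1.99, SD 0.07). ITGB5, a subunit of a vitronectin receptor, ran the other way, with 1436 in NS-si and 1922 in NS-si → CoCl2 cells against 4337 in Sp1-si and 6807 in Sp1-si → CoCl2 cells. It was 3.14-fold higher without CoCl2 (log2 1.65, SD 0.027) and 2.69-fold higher with it (log2 1.43, SD 0.031), and no other integrin or laminin gene was higher by 2-fold in Sp1-si cells.

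Their partner ITGAV stayed under 2-fold. Its 10-spot probe had signals of 25243 in NS-si and 22655 in NS-si → CoCl2 cells against 23302 in Sp1-si and 33371 in Sp1-si → CoCl2 cells. The log2 ratios for Sp1-si to NS-si were -0.06 (SD 0.028) without and 0.16 (SD 0.041) with CoCl2. A second ITGAV probe gave -0.17 without and 0.36 with CoCl2. ITGB8, also a partner of ITGAV, was at -0.43 and -0.51, and its 3 other probes lay between -0.94 and -0.52 without CoCl2 and between -1.18 and -0.81 with it. Its probes therefore shared a direction, although only 1 of them passed 2-fold, and only under CoCl2.

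ITGB1, the subunit shared by most matrix-binding integrins, was measured by 3 probes that were lower in Sp1-si cells without reaching 2-fold. Their log2 ratios were -0.28, -0.52 and -0.56 without CoCl2 and -0.70, -0.95 and -0.92 with it. The last of each series comes from a probe with 10 spots, with SDs of 0.018 and 0.019. ITGB4 and ITGB2 were higher in Sp1-si cells by less than 2-fold. ITGB4, which joins ITGA6 in the hemidesmosome, was at 0.69 without and 0.49 with CoCl2, and ITGB2, the common leukocyte subunit, was at 0.66 (SD 0.042) and 0.46 (SD 0.037) on a 10-spot probe. ITGB7 was at 0.07 and -0.20.

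The laminin-binding alpha subunits ITGA3 and ITGA6 were both lower in Sp1-si cells. ITGA3, the alpha subunit of a major epithelial laminin receptor with ITGB1, had signals of 6385 in NS-si and 6483 in NS-si → CoCl2 cells against 2753 in Sp1-si and 3704 in Sp1-si → CoCl2 cells. The arrays of Sp1-si cells were below those of NS-si cells, 2.23-fold without CoCl2 (log2 -1.16, SD 0.025) and 2.31-fold with it (log2 -1.21, SD 0.031). ITGA6, the partner of ITGB4 and ITGB1, had 3403 in NS-si and 3215 in NS-si → CoCl2 cells against 1713 in Sp1-si and 2071 in Sp1-si → CoCl2 cells. It was at -0.93 without CoCl2, just under the threshold, and at -1.03 with it, so that ITGA6 was lower while its partner ITGB4 was higher. ITGA7, the laminin receptor subunit of muscle, was at 0.04 in both comparisons.

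Of the collagen-binding alpha subunits, ITGA2 was lower by 2-fold in Sp1-si cells under CoCl2 at the probe used, and not without CoCl2. Its signals were 26564 in NS-si and 22639 in NS-si → CoCl2 cells against 24532 in Sp1-si and 10158 in Sp1-si → CoCl2 cells. The Sp1-si → CoCl2 array stood below the other 3, with a log2 ratio to NS-si → CoCl2 of -1.55 (SD 0.023), against -0.06 (SD 0.025) for Sp1-si to NS-si without CoCl2. Under CoCl2 its other probes were at -1.33, -1.14 and 0.08, and the mean over the 4 probes was -0.99, which is not past 2-fold. ITGA1 was at -0.91 without and -0.52 with CoCl2, and ITGA11 at -0.06 and -0.12. The fibronectin receptor subunit ITGA5 was at -0.51 and -0.55. Among the other alpha subunits measured (ITGA2B, ITGA9, ITGAE, ITGAL, ITGAM and ITGAX), ratios were between -0.39 and 0.18 without CoCl2 and between -0.62 and 0.54 with it, the outer values being those of ITGAE and ITGAM.

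Among the laminin chains, LAMA3, LAMC1 and LAMB1 were lower in Sp1-si cells in both comparisons, and LAMA4 lay at the threshold. LAMA3, an alpha chain of the laminin of hemidesmosomes, had signals of 73562 in NS-si and 85194 in NS-si → CoCl2 cells against 22924 in Sp1-si and 45081 in Sp1-si → CoCl2 cells. It was 3.09-fold lower without CoCl2 (log2 -1.63, SD 0.023) and 2.49-fold lower with it (log2 -1.32, SD 0.023). Its other probes gave -1.73 and -1.90 without and -1.49 and -2.15 with CoCl2, so that all 3 probes were past 2-fold in both comparisons. The beta chain LAMB3, a partner of LAMA3 in this laminin, moved less, to -0.42 and -0.77.

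LAMC1, the gamma chain of most laminin trimers, had signals of 94120 in NS-si and 81819 in NS-si → CoCl2 cells against 40348 in Sp1-si and 33276 in Sp1-si → CoCl2 cells. Both arrays of Sp1-si cells lay below both arrays of NS-si cells, 2.25-fold without CoCl2 (log2 -1.17, SD 0.023) and 3.24-fold with it (log2 -1.70, SD 0.023). The beta chain LAMB1, which joins LAMC1 in many trimers, had 77007 in NS-si and 67226 in NS-si → CoCl2 cells against 34398 in Sp1-si and 36303 in Sp1-si → CoCl2 cells. Again the Sp1-si arrays were the low ones, at -1.11 (SD 0.023) and -1.29 (SD 0.023).

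LAMA4, an alpha chain of mesenchymal and vascular laminins, had signals of 5955 in NS-si and 6447 in NS-si → CoCl2 cells against 2881 in Sp1-si and 4125 in Sp1-si → CoCl2 cells. Its ratios of -0.99 (SD 0.025) and -1.04 (SD 0.031) lay on either side of the threshold by about the technical spread, and at 2-fold the first is not counted and the second is. LAMA5 and LAMB2, chains of epithelial and neuromuscular basement membranes, were higher by less than 2-fold, at 0.39 and 0.08 for LAMA5 and at 0.49 and 0.42 for LAMB2. LAMA2, the alpha chain of muscle laminin, was at 0.24 and 0.64, and LAMB4 at -0.69 and -0.79. LAMA1 hardly differed, at 0.01 and -0.08. LAMC3 was at 0.04 and -0.46, the latter becoming -0.07 without scaling. LAMA4, LAMB1 and LAMC1, which can form a trimer, were thus near or past 2-fold together, whereas LAMA3 was past it and its partner LAMB3 was not.

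By count, CoCl2 changed these genes less than the silencing of Sp1 did. All genes on the array showed the same order, with 5.87% higher and 5.81% lower by 2-fold in Sp1-si cells without CoCl2. The times are also unlike, since CoCl2 was given for 4 h and 40 h of culture followed transfection. In NS-si cells none of the 34 measured genes was higher or lower by 2-fold after CoCl2 at the probe used. This stands beside 3.8% higher and 3.22% lower of all 14618 genes. The log2 ratios were between -0.76 for LAMB4 and 0.74 for LAMB3, with a median of 0.21 over the members and 0 over all genes. Of the members, 28 were above 0, a direction that depends on the scaling, since their median without it was -0.02. Leaving out the scaling moves the median of all genes by -0.23 as well. LAMB3 had unscaled signals of 106057 in NS-si and 151124 in NS-si → CoCl2 cells. Its log2 ratio was 0.74 after scaling and 0.51 without it, and ITGB5 followed at 0.65 after scaling. LAMB4 went from 3586 to 1812 and LAMA2 from 166 to 89.6 before scaling, and their scaled log2 ratios were -0.76 and -0.66.

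In Sp1-si cells, ITGA2 was the single gene of 33 past 2-fold after CoCl2 at the probe used, being lower. This is 3.03% of the members beside 3.72% of all genes that were lower, and none of the members was higher beside 3.45% of all genes. The members ranged from -1.50 for ITGA2 to 0.75 for LAMA3, with a median of 0.17. LAMB4 was again lower (-0.86, SD 0.031), and LAMC1 was at -0.51 where it had been at 0.02 in NS-si cells. LAMA3 went from 22924 to 45081 before scaling. Its scaled log2 ratio was 0.75 (SD 0.026) against 0.44 (SD 0.029) in NS-si cells. Its second probe gave 1.47 and 1.23, past 2-fold in both, while the third gave 0.16 and 0.40.

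The CoCl2 ratio in Sp1-si cells minus that in NS-si cells was past 2-fold for ITGA2 alone, which was lower in Sp1-si cells (1 of 33, or 3.03%, beside 2.88% lower of all 14282 genes, and 0 higher beside 0.973%). For this probe the CoCl2 ratio was -1.50 after Sp1 silencing and -0.01 after the control siRNA, which differ by -1.49 (SD 0.036). The 4 ITGA2 probes did not all show it. The difference was -1.33 at the probe A_24_P243329 and -1.15 at A_23_P70161 but 0.18 at A_32_P178800, whose signal was 2066 in Sp1-si and 2878 in Sp1-si → CoCl2 cells. All 4 probes carry the same RefSeq accession, and where on the transcript each lies was not analysed here. With the mean over all 4 probes in place of 1 probe, ITGA2 was at -0.85 for CoCl2 in Sp1-si cells and at -0.95 for the difference, and no gene passed 2-fold in either. At the probe used, the remaining 32 genes had differences between -0.53 for LAMC1 and 0.41 for LAMA2. Outside this range lay another probe of ITGAV, at 0.53, and another of ITGB8, at -0.62. Across all 33 at the probe used, 24 were below 0 with a median of -0.09. Without scaling their median was 0.36, and all genes move up by 0.45 as well.

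**Figure D2:**
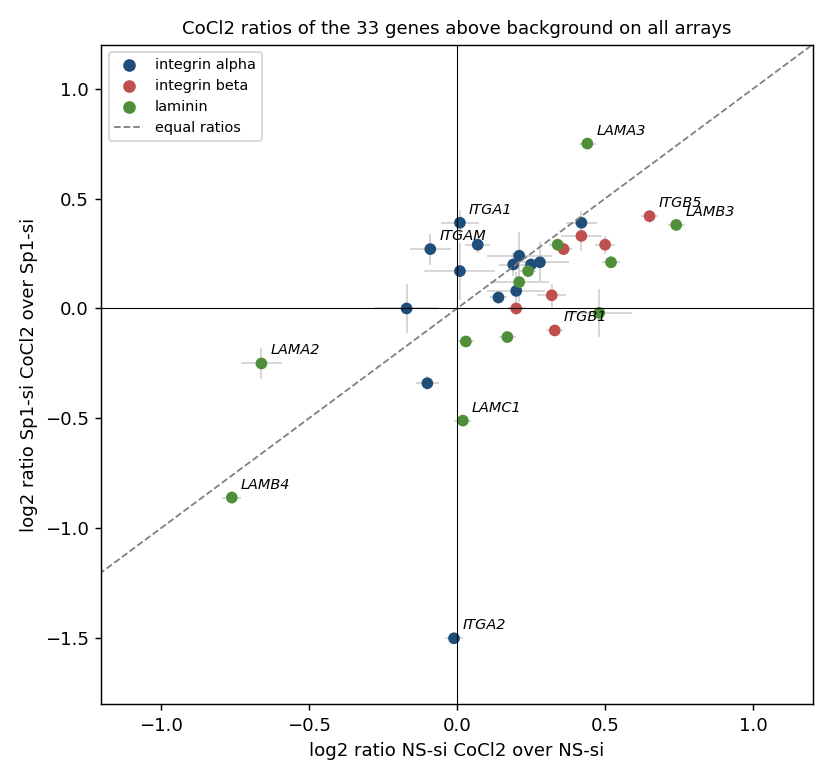
Log2 CoCl2 ratio in NS-si cells (x axis) against that in Sp1-si cells (y axis) for the 33 integrin and laminin genes above background on all 4 arrays, coloured by family. Grey bars are the SD between spots and the dashed line marks equal ratios. ITGA2 lies far below the line at -1.50 on the y axis, and LAMB4 is low on both axes.

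Of the 13 genes with more than 1 probe, 7 had at least 2 probes above background on all 4 arrays. The spread between the probes of 1 gene, taken as highest minus lowest log2 ratio, had a median over these 7 genes of 0.27 for Sp1-si to NS-si and 0.41 for the same comparison under CoCl2, larger than the SDs between spots of bright probes. The widest spread was 0.65 for Sp1-si to NS-si, between the ITGA2B probes at 0.08 and 0.73. For CoCl2 in Sp1-si cells it was 1.75, between the ITGA2 probes. Probes of LAMA3 and ITGB8 also lay more than 1 apart there, those of ITGB8 from -0.35 to 0.82. In NS-si cells 1 ITGB8 probe was past 2-fold after CoCl2, at 1.07, while the probe used was at 0.36.

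The other genes of cell adhesion gave a mixed picture. Of 31 adaptors and kinases that link integrins to actin and signalling, all measured, 1 was higher and 0 lower by 2-fold in Sp1-si cells without CoCl2, and 3 were higher and 2 lower with it. The shares of all genes were 5.87% higher and 5.81% lower without CoCl2, and 7.06% and 7.73% with it, and the median ratio of the list was -0.24 without and -0.08 with CoCl2. TLN1 (talin), which binds the tails of beta subunits and activates integrins, had signals of 102 in NS-si and 108 in NS-si → CoCl2 cells against 449 in Sp1-si and 818 in Sp1-si → CoCl2 cells. It was 4.56-fold higher without CoCl2 (log2 2.19, SD 0.059) and 5.74-fold higher with it (log2 2.52, SD 0.052), and a second probe gave 2.42 and 2.06. After CoCl2 in NS-si cells this second probe was at 1.03 and the probe used at 0.31. ZYX (zyxin, an actin-binding protein of focal adhesions) at 1.16 and the scaffold NEDD9 at 1.01 were higher under CoCl2. LIMS1, a partner of the kinase ILK, at -1.22 and FERMT3, the kindlin of blood cells, at -1.74 were lower.

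After CoCl2, FERMT3 was 7.06-fold higher in NS-si cells (log2 2.82) and 3.64-fold higher in Sp1-si cells (log2 1.86), and FBLIM1, which binds filamin, was higher in Sp1-si cells (1.08), though its other probes were at 0.05 and 0.24. At the probe used, no adaptor or kinase was lower by 2-fold after CoCl2, beside 3.22% of all genes after the control siRNA and 3.72% after Sp1 silencing. Of the 22 matrix ligands and basement membrane partners, 21 were on the array and 17 could be compared. In Sp1-si cells 1 of the 17 was lower by 2-fold without CoCl2 and 2 with it, beside 5.81% and 7.73% of all genes. NID2, which bridges laminin and collagen IV, was lower in Sp1-si cells without CoCl2 (-2.25, SD 0.024) and with it (-2.33). The collagen IV chain COL4A1 was also lower under CoCl2 (-1.06), and its second probe gave -1.03. That second probe was higher by 2-fold after CoCl2 in NS-si cells (1.14), where the probe used was at 0.40. A further collagen IV chain, COL4A4, was the only ligand lower by 2-fold after CoCl2 in Sp1-si cells (-1.62), beside 3.72% of all genes. At the probe used no ligand was higher by 2-fold in any comparison, beside 3.45% to 7.06% of all genes. Counts among 17 genes are too small to set apart from these shares. NID1, COL4A3 and COL4A6 were not above background on any array, and EDIL3 was above it on the NS-si array alone.

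Among 9 other laminin receptors and hemidesmosome genes, the syndecans SDC1 and SDC4, which bind matrix through heparan sulfate, and the hemidesmosome collagen COL17A1 were lower in Sp1-si cells in both comparisons. These are 3 of 9 genes, beside 5.81% of all genes without CoCl2 and 7.73% with it. SDC4 was at -2.07 without and -1.31 with CoCl2, SDC1 at -1.62 and -1.49, and COL17A1 at -1.33 and -1.73. A second probe of each also lay past 2-fold in both comparisons, at -2.24 and -2.30 for SDC4, at -1.25 and -1.17 for SDC1 and at -1.48 and -1.42 for COL17A1. SDC4 was higher after CoCl2 in Sp1-si cells at the probe used (1.15) but not at the second (0.27), which is 1 gene of 9 beside 3.45% of all genes. DAG1, BCAM, RPSA, PLEC, DST and CD151 stayed under 2-fold in all 4 comparisons. Of the markers, NAPSA was lower in Sp1-si cells (-2.33 without and -2.39 with CoCl2). MUC16 lay at the threshold without CoCl2, at a rounded -1.0, and at -0.60 with it. CD68 was at 720, 248, 785 and 402 on the NS-si, Sp1-si, NS-si → CoCl2 and Sp1-si → CoCl2 arrays. Their part in the ratios of the integrin and laminin genes was not tested.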

How the data were processed

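The integrin and laminin genes and the lists used with them were chosen with earlier results of these data known. The authors deposited 1 scanner file per array (Agilent Feature Extraction 10.5.1.1 per the file headers), holding intensities with the background subtracted and spatial trends removed, but not normalized between arrays. The authors' deposited value table is this intensity times 1 constant per array. Here, outlier spots were left out (which removed 8 of 41000 probes and no probe of these genes), spots of a probe were averaged on the log2 scale, and the 75th percentile over the non-control spots was subtracted. A probe counted as well above background on an array if 50% or more of its spots did, and a ratio needs this on both arrays. Where only 1 array passed, a bound was computed with the dim side at the higher of its own signal and the lowest well-above-background signal of its array (6.72 to 10.2). Symbols came from RefSeq accessions, with 28458 of 29877 such spots matched. Genes past 2-fold were named, with those nearest to it. The counting code was run on simulated data with planted changes far above the simulated noise. That noise was below the spread of dim probes here, so the run checked the code and not the precision of the ratios. The SD between spots was 0.023 to 0.029 for the brightest 53 10-spot probes and 0.292 to 0.364 for the dimmest. No p-value was computed. The 12 alternatives were 4 other scalings (median, quantile, none, and the percentile over probes above background on all 4 arrays), the authors' table, normexp, outlier spots kept, 3 other treatments of dim probes, the mean over probes and a 1.5-fold threshold. Protein sequences were not analysed here. Some items are not reported here by name, though the counts, medians and sums include them. The files held no mean signal, so normexp used median signals, with an offset of 50. The paper's legend gives another culture time before exposure than the labels. Python 3.11.15, numpy 2.4.6, pandas 2.3.3, matplotlib 3.10.9, R 4.3.3 and limma 3.58.1 were used.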

Additional observations from a re-analysis of the deposited data

How the results depend on the processing

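No paired analysis was possible because there is 1 array per condition. No ratio past 2-fold changed sign under any alternative that could give it. Without scaling, the genes past 2-fold under CoCl2 in Sp1-si relative to NS-si cells were 2 higher and 3 lower, in place of 1 and 8. With each gene taken as the mean of its probes, 0 genes were lower after CoCl2 in Sp1-si cells and 0 had a lower difference of CoCl2 ratios, in place of 1 each. Without the filter on background, 2 genes had a lower difference. With 1.5-fold as the threshold, 2 genes were higher and 2 lower after CoCl2 in NS-si cells, 1 higher and 2 lower after CoCl2 in Sp1-si cells, 3 higher and 10 lower in Sp1-si relative to NS-si cells, and 2 higher and 13 lower under CoCl2. Shares of all genes are given only at 2-fold with the main processing. The counts under the alternatives therefore cannot be set against the whole array here. The ratio of ITGB3 without CoCl2 was -2.65 to -0.88 over the alternatives, the end nearer 0 being normexp. Under CoCl2, LAMA4 passed 2-fold in 5 of 10 alternatives and ITGA6 in 7, while ITGB6, LAMC1 and ITGB5 passed in 10. Dim genes have the least precise ratios, and 1 array per condition leaves every value without a replicate.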

Other observations

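Some genes named after integrins are not integrin subunits, and those given here were chosen after their values were seen. Among them, ITGB1BP2 (melusin, a protein of muscle) went from 277 to 129 after CoCl2 in NS-si cells before scaling. In Sp1-si cells it went from 239 to 152. The scaled log2 ratios were -0.87 and -0.88. ITGB3BP, a centromere protein also called CENPR, was at -0.80 in Sp1-si relative to NS-si cells without CoCl2 and at -0.57 with it. ITGBL1 was not above background on any array.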
